A study of Mus musculus with 8 samples.

Results

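The cytosolic ribosomal protein genes were examined across mouse blastocysts that were fresh, vitrified, or vitrified with melatonin. They were taken as every row of the deposited expression table whose gene symbol has the form of a large subunit protein (Rpl or Rplp), a small subunit protein (Rps or Rpsa) or Fau. This gave 85 of 19688 rows, 51 for the large and 34 for the small subunit. Of these, 82 (49 large, 33 small) reached 1 FPKM in at least 2 libraries and entered the test with 10755 genes in all. Rpl9, Rpl23a and Rps13 did not reach it. FPKM are fragments scaled for the length of the transcript and for library depth.

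The blastocyst is the hollow embryo before implantation, whose trophectoderm encloses a cavity and the inner cell mass. The melatonin-vitrified group held 3 libraries of blastocysts that were vitrified (cooled to a glass in cryoprotectant) and thawed in media with 1e-10 M melatonin, a hormone and antioxidant. The vitrified group held 3 libraries from blastocysts labeled as vitrified with no mention of melatonin. The fresh group held 2 libraries from blastocysts that were not vitrified. The labels give no strain, age, sex or number of embryos, and do not say whether the numbered biosamples were separate animals, pools or cultures, so p-values measure only the spread between these samples. The series text names Smart-seq2, a method for small amounts of RNA, and the sample protocol describes bulk RNA with poly(A) selection and a stranded library. In bulk samples, fewer cells of a type and less RNA per cell cannot be told apart.

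Cytosolic ribosomal proteins bind ribosomal RNA to form the small subunit, which reads the mRNA, and the large subunit, which joins amino acids. Their mRNAs are among the most abundant of growing cells and begin with a run of pyrimidines (a 5′ TOP) through which mTOR and Larp1 control their translation. The mammalian genome also holds many processed copies of these genes, made by reverse transcription of their mRNAs, and a few paralogue variants that replace a family member in some tissues.

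Steps in the low values gave an estimate of 5815000 to 9994000 assigned fragments per library, and 94.4% to 96.7% of these values then came within 0.1 of whole fragments. At the median transcript length of the ribosomal protein genes, 1059 bases, 1 FPKM then stood for 6.16 to 10.6 fragments. Mitochondrially encoded mRNAs took 4.24% to 4.93% of summed FPKM in melatonin-vitrified, 4.55% to 5.89% in vitrified, and 11.3% and 6.56% in fresh libraries. Malat1, a nuclear RNA, had 70.3 to 94.3 FPKM in melatonin-vitrified, 139.6 to 149 FPKM in vitrified, and 11.4 and 93.4 FPKM in fresh libraries. Fresh replicate 1 stood apart in both. The part of either measure in the results below was not tested.

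Levels spread widely within the family. Over the 8 libraries Rpl4, which lines the peptide exit tunnel, averaged 1806 FPKM. At the other end stood Rps13 at 0.286, Rpl9 at 0.604, Rpl23a at 0.660, Rpl11 at 1.02, Rps27 at 1.38 and Rpl28 at 1.97 FPKM. The coding sequences of the 84 members annotated as protein coding were therefore compared with the other transcripts of GENCODE M21. In all, 79 had at least 1 copy elsewhere in the genome with at least 95% identity over at least 80% of the coding sequence, and there were 581 such copies. For 36 members a copy had its own row in the table (50 rows, of which 37 were annotated as pseudogenes and 12 as protein coding), and 27 of these rows averaged 10 FPKM or more.

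The following coding stretches show how little separates a low member from a copy with a high value. They run 5′ to 3′ and come from GENCODE M21 transcripts on GRCm38, and capitals mark the bases that differ. Positions are counted from 1 at the first coding base, and the member's base comes first.
Rpl23a: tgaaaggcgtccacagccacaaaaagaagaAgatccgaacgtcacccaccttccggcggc
Rpl23a-ps3: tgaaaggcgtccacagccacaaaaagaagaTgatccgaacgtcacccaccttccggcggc
Rpl9: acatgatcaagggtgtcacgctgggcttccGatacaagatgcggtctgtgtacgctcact
Rpl9-ps6: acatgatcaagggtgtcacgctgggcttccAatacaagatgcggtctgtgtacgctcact
Rps27: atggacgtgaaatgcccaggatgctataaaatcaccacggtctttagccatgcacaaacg
Rps27rt: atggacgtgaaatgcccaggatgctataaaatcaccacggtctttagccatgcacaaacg

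Rpl23a, on chromosome 11, differed from its chromosome 14 pseudogene Rpl23a-ps3 (chr14:34170655-34171122) at A116T alone over 468 aligned bases. Rpl23a averaged 0.660 FPKM over the 8 libraries and Rpl23a-ps3 336 FPKM. Rpl9, on chromosome 5, differed from Rpl9-ps6 (chr19:32465865-32466578) at G266A alone over 576 bases, with 0.604 FPKM for Rpl9 and 203 FPKM for Rpl9-ps6. Rps27, on chromosome 3, and Rps27rt on chromosome 9 had 0 differences over 252 coding bases, with 1.38 FPKM for Rps27 and 129.8 FPKM for Rps27rt. These 3 rows with few fragments each had a near-identical copy with over 100 FPKM. Rps13 and Rpl28, also low, had 5 and 4 copies in the genome, but no copy with a row in the table.

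The copies summed above the member in 18 of the 36 families with a copy in the table. Rpl27 averaged 21.6 FPKM beside 859.8 FPKM for Rpl27-ps3, Rpl35 83.7 FPKM beside 957 FPKM for Gm2000, and Rpl5 26.1 FPKM beside 532 FPKM for Gm15500. Rps18 averaged 31.1 FPKM beside 603 FPKM for Gm10260, and Rpl11 1.02 FPKM beside 228 FPKM for Gm10036. Fau, which encodes a ubiquitin-like protein fused to a small subunit protein, had 492 FPKM, and its identical pseudogene Gm9843 had 488 FPKM. Median FPKM was 197 in the 5 members with no copy (among them Rps3, Rps27l and Rpl39l), 101 in the 35 with 1 to 4 copies, 26.1 in the 27 with 5 to 9 and 17.3 in the 17 with 10 or more. Spearman's rho between copies in the genome and mean FPKM was -0.455 across the 84 genes, given as a description. The counting tool is not given in the sources used here, so how reads were shared between a member and its copy is unknown, and the level of one member against another is uncertain wherever copies exist.

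**Figure D1:**
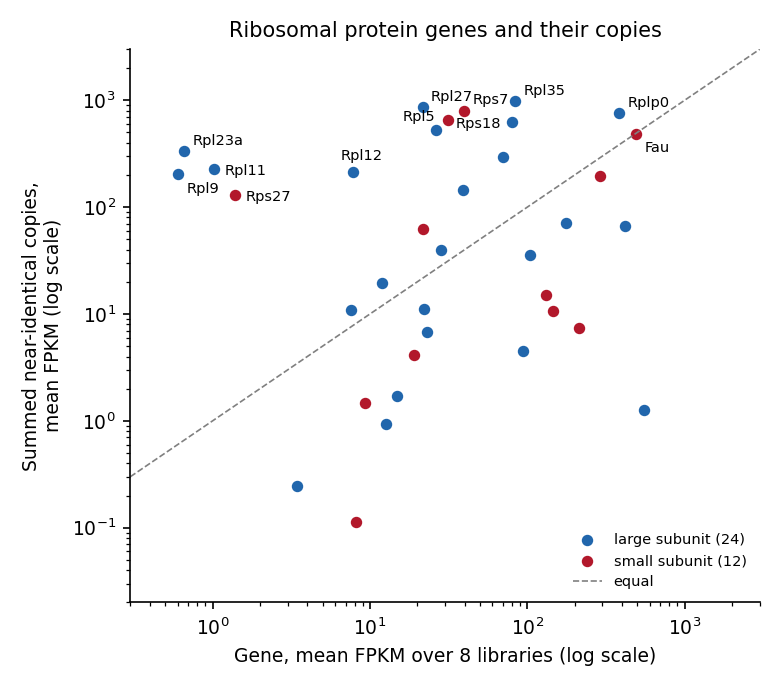
Mean FPKM over the 8 libraries of each ribosomal protein gene (horizontal, log scale) and of its near-identical copies in the table, summed (vertical, log scale), for the 36 genes with such a copy. In 18 of them the copies lie above the dashed line of equal values, and Rpl23a, Rpl9, Rpl11 and Rps27 lie farthest to the left.

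Summed, the ribosomal protein genes took the smallest share of summed FPKM in melatonin-vitrified blastocysts. The 85 genes made up 2.67%, 3.07% and 3.17% in melatonin-vitrified, 3.27%, 3.87% and 3.55% in vitrified, and 4.13% and 3.70% in fresh libraries. The melatonin-vitrified libraries lay below all others, while vitrified and fresh libraries overlapped. With 3 libraries against 3, no exact permutation test of this share could pass 0.05, and none was run. The large subunit took 1.51% ± 0.126 in melatonin-vitrified (SD, n = 3), 1.76% ± 0.156 in vitrified (n = 3) and 1.94% ± 0.183 in fresh libraries (n = 2). The small subunit took 1.46% ± 0.139, 1.80% ± 0.151 and 1.97% ± 0.118 in the same order of groups. The ratio of the summed large to the summed small subunit was 1.03 ± 0.0256 in melatonin-vitrified, 0.976 ± 0.0301 in vitrified and 0.984 ± 0.0338 in fresh libraries, and its values overlapped between all groups. With the copies added, the share was 4.62% ± 0.433, 5.55% ± 0.513 and 6.24% ± 0.602, again lowest in the melatonin-vitrified libraries.

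**Figure D2:**
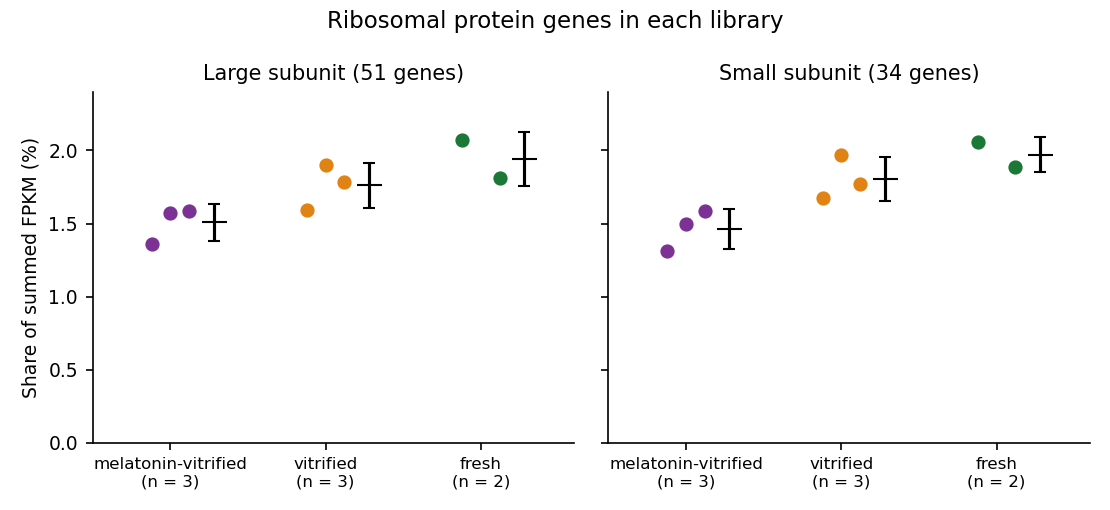
Share of summed FPKM (percent) taken by the 51 large subunit genes (left panel) and the 34 small subunit genes (right panel). Each point is a library and the bar beside it is the group mean with its SD. The melatonin-vitrified points, from 1.31% to 1.59%, lie below every vitrified and fresh point of the same panel.

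The members varied together. Over the 8 libraries the correlation of a gene with the mean of the other tested members had a median of 0.924 and exceeded 0.9 in 46 of 82 genes. These libraries share their scaling, and the values are a description. Melatonin-vitrified replicate 1 was the lowest of the 8 libraries for 65 genes, fresh replicate 1 was the highest for 52 and vitrified replicate 2 for 20. The mean level was lowest in melatonin-vitrified and highest in fresh libraries for 65 of the 82. These counts and correlations are given without the same values over all genes. On the log2(FPKM + 1) scale, the median deviation of members from their own means was -0.46 in melatonin-vitrified replicate 1, beside 0.004 for all tested genes. It was 0.45 in fresh replicate 1, beside -0.17, and 0.31 in vitrified replicate 2, beside 0.08. Correlations under 0.5 were found for 5 genes: Rps20 (-0.275), Rpl11 (0.0567), Rps29 (0.0785), Rpl10l (0.381) and Rps27 (0.424).

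**Figure D3:**
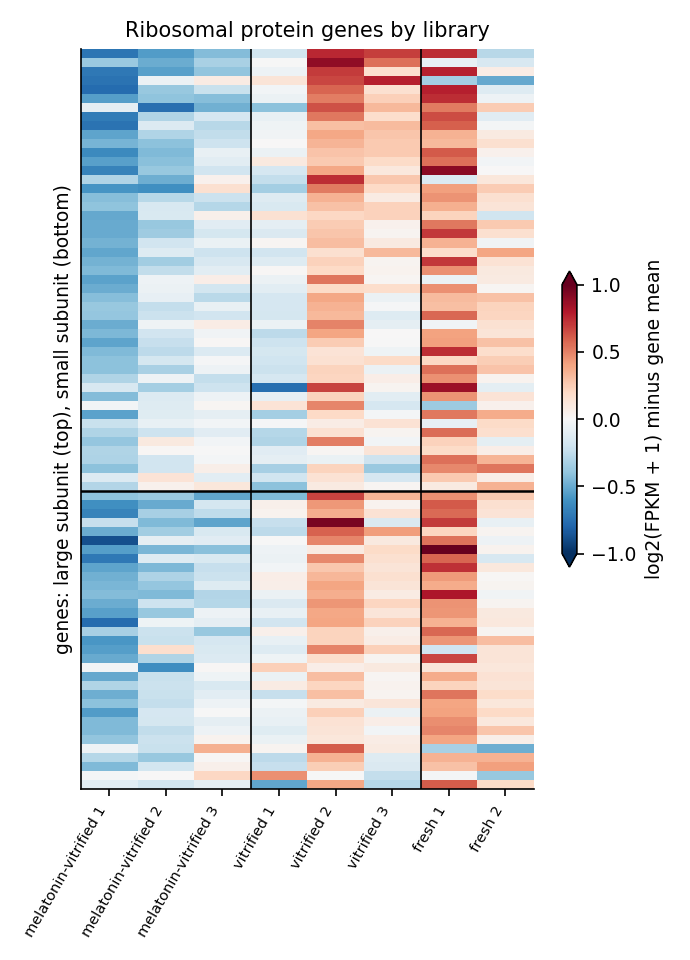
Each row is 1 of the 82 tested ribosomal protein genes and each column a library, colored by log2(FPKM + 1) minus the mean of that gene (scale capped at -1 and 1). Large subunit genes stand above the black line and small subunit genes below it, each ordered by the fold change of melatonin-vitrified against vitrified. Melatonin-vitrified replicate 1 is below the gene mean in all 82 rows, and vitrified replicate 2 is above it in 80.

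The start sites are shown because the pyrimidine run of TOP mRNAs is the feature through which these genes are known to be controlled together, for members of both subunits and for 3 variants. The windows run from 60 bases before to 20 after the annotated start, 5′ to 3′ on the coding strand, from RefSeq promoters on GRCm38.p6. Capitals mark a C followed by at least 6 further C or T bases, where the run begins no more than 30 bases before the start; runs that begin further upstream, as in Rpl7l1 and Rps18, are in lower case.
Rplp2: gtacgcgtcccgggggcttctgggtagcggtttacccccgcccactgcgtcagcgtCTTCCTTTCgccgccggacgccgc
Rps18: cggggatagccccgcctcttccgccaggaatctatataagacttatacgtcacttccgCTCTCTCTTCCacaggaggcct
Rpl35: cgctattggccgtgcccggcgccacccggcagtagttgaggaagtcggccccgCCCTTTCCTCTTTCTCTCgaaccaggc
Rpl22l1: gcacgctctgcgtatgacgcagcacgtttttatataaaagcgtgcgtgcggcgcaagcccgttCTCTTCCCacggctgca
Rpl7l1: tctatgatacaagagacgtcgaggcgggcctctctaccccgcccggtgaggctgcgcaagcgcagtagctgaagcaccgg
Rpl10l: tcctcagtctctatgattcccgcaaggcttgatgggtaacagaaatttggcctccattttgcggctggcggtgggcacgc

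These windows lie at chr7:141447591-141447670 (Rplp2), chr17:33955646-33955725 (Rps18), chr2:39005112-39005191 (Rpl35), chr3:28805448-28805527 (Rpl22l1), chr17:46782637-46782716 (Rpl7l1) and chr12:66284382-66284461 (Rpl10l). Rplp2 and Rpl22l1 lie on the plus strand and the others on the minus strand. Promoters were matched by symbol for 64 of the 85 genes. The run, searched on the coding strand from 30 bases before to 50 after the start, was found in 50 of 64 (78.1%), against 10005 of 27025 genes (37.0%) in the whole promoter table. It was found in 32 of 39 large and 18 of 25 small subunit genes, and in 4 of 6 variants with a promoter (66.7%). The variants printed above include Rpl7l1 and Rpl10l, the only ones of these 6 without it. Other members without the run, such as Rplp0, Rps3 and Rpl23, are not printed. The ETS core CCGGAAG, searched on both strands from 250 bases before to 50 after the start, was found in 26 of 64 (40.6%), against 9.93% of all genes. TATAAA within 50 bases before the start on the coding strand was found in 1 of 64, Rpl22l1, against 3.15% of all genes. Rpl7l1 and Rpl10l matched none of the 3 searches, which says only that these letters are not in the windows searched.

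The comparison of melatonin-vitrified with vitrified blastocysts addresses the effect of melatonin in the media. Nearly all ribosomal protein genes were a little lower in melatonin-vitrified blastocysts, in both subunits, but no single ribosomal protein gene passed the test. Among those lower were the tunnel protein Rpl39, the mRNA entry protein Rps3 and the stalk proteins Rplp1 and Rplp2. The fold change was below 0 for 79 of 82 members, beside 56.2% of all genes. The median log2 fold change was -0.35 for the 49 large and -0.40 for the 33 small subunit genes, with -0.05 for all genes. With trends over transcript length and GC content removed, an alternative chosen after seeing the data, the medians were -0.20 and -0.26, with 0.01 for all genes. In 41 members every melatonin-vitrified library lay below every vitrified one, beside 15.4% of all genes, and in 0 above, beside 9.3%. By limma 0 members had an adjusted p below 0.05 in either direction, beside 0.0279% of all tested genes higher and 0.112% lower. At an unadjusted p below 0.05, 29 of 82 were lower (35.4%, beside 10.2% of all genes) and 0 higher, beside 4.59% of all genes. Without melatonin-vitrified replicate 1, 76 of 82 were below 0 and 12 had an unadjusted p below 0.05, beside 7.89% of all genes. Leaving out vitrified replicate 2, 3 or melatonin-vitrified replicate 2 gave 76, 81 and 79 below 0, with 10, 14 and 18 at an unadjusted p below 0.05 (6.34%, 6.77% and 8.44% of all genes). Without vitrified replicate 1, 65 members had no overlap, beside 24.3% of all genes.

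Rpl39, a small protein at the exit of the peptide tunnel, had the most negative fold change. It had 21.1, 23.8 and 26.2 FPKM in melatonin-vitrified, 31.3, 60.9 and 58.2 FPKM in vitrified, and 60.1 and 29.2 FPKM in fresh libraries. All 3 melatonin-vitrified libraries lay below the other 5. The log2 fold change against vitrified was -0.996 ± 0.30 (SE, adjusted p = 0.212). Its copy Rpl39-ps averaged 145 FPKM, so the Rpl39 row is uncertain. Rpl37a, a zinc-binding protein of the large subunit, had 45.8, 51.6 and 57.5 FPKM in melatonin-vitrified, 72.9, 124 and 85.3 FPKM in vitrified, and 129 and 79.8 FPKM in fresh libraries. Here too the melatonin-vitrified libraries lay below all others, with -0.82 ± 0.23 against vitrified (adjusted p = 0.196) and -0.97 ± 0.26 against fresh (adjusted p = 0.147).

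Among the genes without a near-identical copy, Rps3, which lies at the mRNA entry channel, had 90.9, 103 and 109 FPKM in melatonin-vitrified, 133, 161 and 142 FPKM in vitrified, and 171 and 128 FPKM in fresh libraries. No melatonin-vitrified library reached the lowest of the others, and the log2 fold change against vitrified was -0.52 ± 0.15 (adjusted p = 0.199). The median over the 5 genes without a copy was -0.52. Over the 39 tested copies it was -0.40, with 37 of them below 0 and 0 past the test. At the upper end of this comparison stood Rpl15 (0.05 ± 0.19), Rpl7l1 (0.04 ± 0.15), Rps23 (0.01 ± 0.24) and Rps20 (-0.01 ± 0.20), with groups that overlapped in all 4.

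The comparison of vitrified with fresh blastocysts addresses the effect of vitrification and thawing. Most ribosomal protein genes were slightly lower in vitrified blastocysts, with Rpl13a, Rpl27 and Rps23 among the lowest, while Rpl10l, Rps29 and Rpl10 were higher in every vitrified library. The rows of Rpl27 and Rpl10 are uncertain, because each has an identical copy with a higher mean whose vitrified and fresh libraries overlapped. Rpl13a, Rps23, Rps29 and Rpl10l have 2, 11, 7 and 1 copies in the genome, and how reads were shared with them is unknown. No ribosomal protein gene passed the test, and the shift of the family depended on fresh replicate 1 and on vitrified replicate 1. The fold change was below 0 for 68 of 82, beside 36.5% of all genes. The median log2 fold change was -0.19 for the large and -0.17 for the small subunit, where all genes had a median of 0.14, so that relative to all genes the medians were -0.33 and -0.31. With quantile normalization the relative medians were -0.16 and -0.09, and with median-ratio scaling -0.36 and -0.35 (-0.37 and -0.37 before all genes were subtracted). Without fresh replicate 1 the medians were -0.04 and 0.02 (relative to all genes -0.11 and -0.05), with 41 of 82 members below 0, beside 43.6% of all genes. Without vitrified replicate 1 they were -0.05 and -0.10 (relative to all genes -0.20 and -0.25), with 49 members below 0, beside 35.6% of all genes. Without fresh replicate 2 they were -0.36 and -0.36 (relative to all genes -0.57 and -0.57).

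By limma 0 members passed in this comparison, beside 0.762% of all genes higher and 0.102% lower. At an unadjusted p below 0.05, 3 were higher and 6 lower, beside 15.6% and 4.56% of all genes. Groups did not overlap for 12 lower members (14.6%, beside 10.6% of all genes) and 3 higher ones (3.66%, beside 26.4%). Lower members without overlap numbered 35 without vitrified replicate 2 (16.1% of all genes) and 55 without fresh replicate 2 (22.1% of all genes). They numbered 13 without vitrified replicate 1 (13.7% of all genes) and 15 without vitrified replicate 3 (13.1%). Without fresh replicate 1 they numbered 15 of 82, a smaller share than the 26.7% of all genes.

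Rpl13a, a large subunit protein known in human cells to leave the ribosome and silence inflammatory mRNAs, had 511, 521 and 471 FPKM in vitrified libraries and 798 and 691 FPKM in fresh libraries. The groups did not overlap, and the log2 fold change was -0.57 ± 0.15 (adjusted p = 0.0756). In melatonin-vitrified libraries it had 439, 476 and 537 FPKM, which overlapped the vitrified values (-0.05 ± 0.13, adjusted p = 0.875). Rpl27, also of the large subunit, had 15.5, 18.2 and 21.8 FPKM in melatonin-vitrified, 16.4, 24.6 and 15.9 FPKM in vitrified, and 29.6 and 30.8 FPKM in fresh libraries. Both fresh libraries lay above the other 6, and vitrified against fresh was -0.67 ± 0.22 (adjusted p = 0.139). Its identical copy Rpl27-ps3 averaged 859.8 FPKM, so the Rpl27 row is uncertain. Rpl27-ps3 had 746, 1023 and 847 FPKM in vitrified and 1400 and 922 FPKM in fresh libraries, which overlapped (-0.39 ± 0.22, adjusted p = 0.344). For melatonin-vitrified against vitrified it was at -0.43 ± 0.20, beside -0.02 for the Rpl27 row.

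Rps2, at the mRNA entry of the small subunit, had 83.1, 88.4 and 91.3 FPKM in melatonin-vitrified, 118, 130.0 and 139 FPKM in vitrified, and 275 and 125 FPKM in fresh libraries. The fresh replicates differed more from each other than fresh replicate 2 did from any vitrified library. Vitrified against fresh was -0.52 ± 0.27 (adjusted p = 0.315). It was 0.04 without fresh replicate 1 and -1.09 without fresh replicate 2 (adjusted p = 0.0185). Rps23, which shapes the decoding center, had 8.33, 7.88 and 8.43 FPKM in melatonin-vitrified, 6.03, 12.1 and 7.25 FPKM in vitrified, and 14.3 and 10.5 FPKM in fresh libraries. Vitrified libraries overlapped both other groups, with -0.54 ± 0.27 against fresh (adjusted p = 0.297). Rps23 has 11 copies in the genome, so its row is uncertain.

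The members that lay above both fresh libraries in every vitrified library were Rps29, Rpl10 and Rpl10l. Rps29, a zinc-binding protein of the small subunit, had 6.91, 6.00 and 9.48 FPKM in melatonin-vitrified, 7.36, 11.5 and 7.73 FPKM in vitrified, and 5.52 and 4.85 FPKM in fresh libraries. Both vitrified groups lay above the fresh one, with 0.65 ± 0.25 for vitrified against fresh (adjusted p = 0.188). Rps29 has 7 copies in the genome, with no row of their own in the table, so its row is uncertain. Rpl10, an X-linked gene for a protein needed to join the subunits, had 5.29, 4.78 and 5.52 FPKM in melatonin-vitrified, 7.13, 14.1 and 10.99 FPKM in vitrified, and 6.73 and 6.30 FPKM in fresh libraries. Vitrified libraries lay above both other groups, with 0.60 ± 0.26 against fresh (adjusted p = 0.232) and, for melatonin-vitrified against vitrified, -0.88 ± 0.23 (adjusted p = 0.17). Rpl10-ps3, identical over the coding sequence, averaged 10.7 FPKM, so the Rpl10 row is uncertain. It had 7.17, 6.65 and 7.06 FPKM in melatonin-vitrified, 8.83, 20.2 and 14.8 FPKM in vitrified, and 10.5 and 10.7 FPKM in fresh libraries. Its vitrified libraries lay above the melatonin-vitrified ones but overlapped the fresh ones (0.36 ± 0.28 against fresh, adjusted p = 0.51).

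The comparison of melatonin-vitrified with fresh blastocysts joins both treatments. Ribosomal protein genes of both subunits were lower in melatonin-vitrified blastocysts, with Rps2, Rpl37a, Rplp1 and Rpl36 lowest, and Rps29 was the one member higher in every melatonin-vitrified library. The fold change was below 0 for 78 of 82, beside 40.7% of all genes, and the median was -0.57 for the large and -0.55 for the small subunit, with 0.09 for all genes. In 68 members (82.9%) every melatonin-vitrified library lay below both fresh ones, beside 13.5% of all genes, and in 1 above, beside 20.8%. This comparison shares its libraries with the other 2, which share the vitrified ones, so the 3 are not independent.

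By limma no gene of any kind passed here, which is 0.0% of all genes in either direction. At an unadjusted p below 0.05, 55 of 82 members were lower (67.1%, beside 6.82% of all genes) and 0 higher, beside 11.6%. Without fresh replicate 1, 79 of 82 were below 0, the medians were -0.40 and -0.36, and 15 members had an unadjusted p below 0.05 (4.18% of all genes). The count was 34 without melatonin-vitrified replicate 1 (4.98% of all genes). Without fresh replicate 2, 13 members passed the test as lower, beside 150 of all genes lower and 415 higher. The lone fresh library is then assumed to vary like the other groups.

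The stalk proteins, which recruit translation factors to the large subunit, were among the lowest. Rplp1 had 248, 304 and 347 FPKM in melatonin-vitrified, 352, 516 and 426 FPKM in vitrified, and 740.0 and 397 FPKM in fresh libraries. Melatonin-vitrified libraries lay below all others, with -0.87 ± 0.27 against fresh (adjusted p = 0.168). Rplp2 had 67.7, 75.0 and 74.0 FPKM in melatonin-vitrified, 95.6, 142 and 118 FPKM in vitrified, and 166 and 96.3 FPKM in fresh libraries, in the same arrangement (-0.80 ± 0.24, adjusted p = 0.164). Rplp0, their anchor, had 275, 312 and 340.4 FPKM in melatonin-vitrified, 331, 411 and 364 FPKM in vitrified, and 624 and 422 FPKM in fresh libraries. Melatonin-vitrified and vitrified libraries overlapped and both lay below fresh ones, with -0.73 ± 0.19 for melatonin-vitrified against fresh (adjusted p = 0.143). Rps2 had the most negative value of this comparison, -1.07 ± 0.27 (adjusted p = 0.142), and -0.51 without fresh replicate 1. Rpl36, of the large subunit, stood at -0.83 ± 0.31 (adjusted p = 0.21).

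Rpl5 and Rpl11 bind the 5S RNA and, outside the ribosome, the p53 regulator Mdm2. Rpl5 had 18.8, 20.9 and 21.9 FPKM in melatonin-vitrified, 23.4, 32.8 and 27.2 FPKM in vitrified, and 35.2 and 28.8 FPKM in fresh libraries. Melatonin-vitrified libraries lay below the other 5, with -0.61 ± 0.19 against fresh (adjusted p = 0.166). Its identical copy Gm15500 averaged 532 FPKM, so the Rpl5 row is uncertain. Gm15500 had 410, 497 and 508 FPKM in melatonin-vitrified, 461, 593 and 505 FPKM in vitrified, and 639 and 642 FPKM in fresh libraries. Its melatonin-vitrified libraries lay below the fresh ones (-0.45 ± 0.16) but overlapped the vitrified ones (-0.14 ± 0.14). Rpl11 had 0.955, 0.824 and 1.03 FPKM in melatonin-vitrified, 1.19, 1.80 and 0.777 FPKM in vitrified, and 0.550 and 1.06 FPKM in fresh libraries. These are few fragments, and the groups overlapped in all 3 comparisons. Summed with its copies in the table, Gm10036 and Gm5093, its log2 fold change of melatonin-vitrified against fresh was -0.77, against 0.11 for the Rpl11 row alone. Of other regulators of p53, Rpl23 had 8.12, 7.95 and 14.3 FPKM in melatonin-vitrified, 9.81, 18.6 and 14.7 FPKM in vitrified, and 17.2 and 15.4 FPKM in fresh libraries (-0.68 ± 0.30, adjusted p = 0.27). Rpl26 had 59.95, 71.7 and 62.9 FPKM in melatonin-vitrified, 65.8, 86.3 and 77.7 FPKM in vitrified, and 102 and 75.9 FPKM in fresh libraries (-0.44 ± 0.18, adjusted p = 0.249). In both genes melatonin-vitrified libraries lay below the fresh ones and overlapped the vitrified ones.

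At the peptide tunnel, Rpl4 had 1460.3, 1812 and 1792 FPKM in melatonin-vitrified, 1659.9, 1823 and 1966 FPKM in vitrified, and 2050.2 and 1881 FPKM in fresh libraries. Both fresh libraries lay above the melatonin-vitrified ones and overlapped the vitrified ones, with -0.22 ± 0.15 for melatonin-vitrified against fresh (adjusted p = 0.457). Rpl17 had 11.2, 12.3 and 15.5 FPKM in melatonin-vitrified, 18.01, 20.3 and 19.3 FPKM in vitrified, and 25.04 and 16.4 FPKM in fresh libraries, with melatonin-vitrified libraries below all others (-0.54 ± 0.19 against vitrified, adjusted p = 0.256).

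In the small subunit, Rpsa, also known as a laminin receptor, had 124, 123.03 and 137 FPKM in melatonin-vitrified, 160.2, 216 and 177 FPKM in vitrified, and 294 and 163 FPKM in fresh libraries. Melatonin-vitrified libraries lay below the others (-0.78 ± 0.24 against fresh, adjusted p = 0.165). Rps6, the substrate of the S6 kinases, had 4.68, 4.30 and 5.95 FPKM in melatonin-vitrified, 4.76, 7.79 and 5.32 FPKM in vitrified, and 7.80 and 7.79 FPKM in fresh libraries (-0.57 ± 0.23 for melatonin-vitrified against fresh, adjusted p = 0.241).

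The ubiquitin fusions did not share 1 pattern. Fau had 339.6, 415 and 469 FPKM in melatonin-vitrified, 464, 598 and 489 FPKM in vitrified, and 627 and 534 FPKM in fresh libraries (-0.52 ± 0.18 for melatonin-vitrified against fresh, adjusted p = 0.198). Rps27a, which carries ubiquitin itself, had 5.82, 10.2 and 7.99 FPKM in melatonin-vitrified, 8.14, 13.1 and 10.8 FPKM in vitrified, and 7.71 and 9.95 FPKM in fresh libraries, and its groups overlapped in all 3 comparisons. Rps20, in the head of the small subunit, had 24.2, 24.7 and 28.4 FPKM in melatonin-vitrified, 34.1, 24.4 and 20.6 FPKM in vitrified, and 24.2 and 18.6 FPKM in fresh libraries, with groups that overlapped (0.26 ± 0.22 for melatonin-vitrified against fresh, adjusted p = 0.558).

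**Figure D4:**
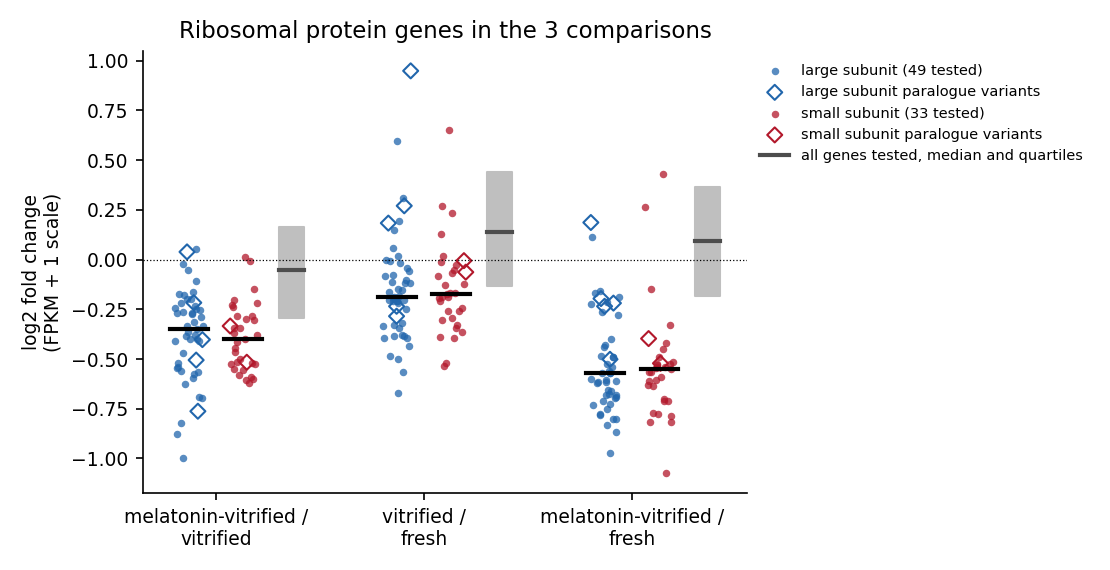
Log2 fold change on the FPKM + 1 scale of the 82 tested ribosomal protein genes in the 3 comparisons, with the large subunit in blue and the small in red. Diamonds are paralogue variants, black lines are the subunit medians, and grey boxes give the median and quartiles of all 10755 genes tested. The subunits overlap in each comparison, with medians of -0.57 (large) and -0.55 (small) for melatonin-vitrified against fresh.

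The paralogue variants are further from their parent genes in sequence than the copies are. Identity over the aligned bases was lowest for Rpl7l1 and Rpl7 (63.4%) and highest for Rpl36al and Rpl36a (87.7%). None of the 7 variants in the table passed the test. Their median log2 fold change was -0.40 for melatonin-vitrified against vitrified, -0.01 for vitrified against fresh and -0.23 for melatonin-vitrified against fresh, beside -0.37, -0.19 and -0.59 for the other 75 tested members. The variants are few, and the difference was not tested.

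Rpl7l1, a relative of Rpl7, had 109, 132 and 112 FPKM in melatonin-vitrified, 105, 133 and 107 FPKM in vitrified, and 144 and 126 FPKM in fresh libraries. Rpl7 had 69.2, 105 and 95.6 FPKM in melatonin-vitrified, 113, 143 and 145 FPKM in vitrified, and 177 and 115 FPKM in fresh libraries. The ratio of Rpl7l1 to Rpl7 was 1.58, 1.25 and 1.17 in melatonin-vitrified, 0.929, 0.932 and 0.739 in vitrified, and 0.816 and 1.09 in fresh libraries. Thus it was above 1 in all 3 melatonin-vitrified libraries and above every value of the other groups. Rpl7 has 7 copies in the genome, with no row of their own in the table.

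Rpl10l, an autosomal retrogene of Rpl10 needed for male meiosis in mice, had 28.05, 45.6 and 50.4 FPKM in melatonin-vitrified, 51.9, 76.1 and 82.2 FPKM in vitrified, and 37.3 and 33.1 FPKM in fresh libraries. Every vitrified library lay above all of the other groups. The log2 fold change was 0.95 ± 0.27 for vitrified against fresh (adjusted p = 0.0993), -0.76 ± 0.24 for melatonin-vitrified against vitrified (adjusted p = 0.225) and 0.19 ± 0.27 for melatonin-vitrified against fresh (adjusted p = 0.753). Rpl10l exceeded Rpl10 by 5.25 to 9.52 times in every library. This ratio is uncertain, because the Rpl10 row averaged 7.60 FPKM beside 10.7 FPKM for its identical copy Rpl10-ps3. Of the 82 tested members, Rpl10l and Rpl10 alone had every vitrified library above all libraries of both other groups. The copy Rpl10-ps3 did not, as its vitrified replicate 1 lay below both fresh libraries.

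Rps27l, a variant of Rps27 that p53 induces, had 168, 177 and 211 FPKM in melatonin-vitrified, 241, 304 and 253 FPKM in vitrified, and 299 and 235 FPKM in fresh libraries. Melatonin-vitrified libraries lay below the other 5, with -0.52 ± 0.16 against vitrified (adjusted p = 0.211) and -0.52 ± 0.18 against fresh (adjusted p = 0.184). The ratio to the Rps27 row, 129 to 334, rests on a parent row with 0.530 to 1.77 FPKM whose identical copy holds the larger value, so this ratio is uncertain. Rps4l, annotated as a transcribed processed pseudogene related to the X-linked Rps4x, had 594, 631 and 658 FPKM in melatonin-vitrified, 775, 851 and 751 FPKM in vitrified, and 854 and 800.2 FPKM in fresh libraries. It lay 3.96 to 6.58 times above Rps4x, with melatonin-vitrified libraries below all others (-0.33 ± 0.12 against vitrified, adjusted p = 0.251).

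Rpl22l1, which in mice can stand in for the RNA-binding protein Rpl22, had 7.96, 10.5 and 12.3 FPKM in melatonin-vitrified, 13.2, 13.8 and 14.0 FPKM in vitrified, and 13.9 and 10.2 FPKM in fresh libraries. Melatonin-vitrified libraries lay below vitrified ones (-0.40 ± 0.19, adjusted p = 0.366) and overlapped fresh ones, and its ratio to Rpl22 ran from 0.591 to 1.07 with all groups overlapping. Its own copy Gm15421 averaged 19.7 FPKM, so its row is uncertain. Rpl39l, known from mouse testis, had 28.3, 24.6 and 36.0 FPKM in melatonin-vitrified, 29.5, 58.9 and 42.4 FPKM in vitrified, and 31.7 and 37.8 FPKM in fresh libraries, and its groups overlapped in all 3 comparisons. Rpl36al, a retrogene of Rpl36a, had 31.9, 39.4 and 41.7 FPKM in melatonin-vitrified, 40.9, 50.6 and 40.2 FPKM in vitrified, and 59.7 and 47.8 FPKM in fresh libraries. Its fresh libraries lay above the melatonin-vitrified ones (-0.50 ± 0.19, adjusted p = 0.214), and it exceeded Rpl36a by 9.80 to 18.2 times. Rpl36a has 5 copies in the genome, and the 1 with a row averaged 0.243 FPKM, so this ratio is uncertain too. Rpl3l was not analysed here; its parent Rpl3, at the peptidyl transferase center, had 37.6, 41.7 and 43.1 FPKM in melatonin-vitrified, 43.5, 46.4 and 48.8 FPKM in vitrified, and 41.4 and 50.4 FPKM in fresh libraries.

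**Figure D5:**
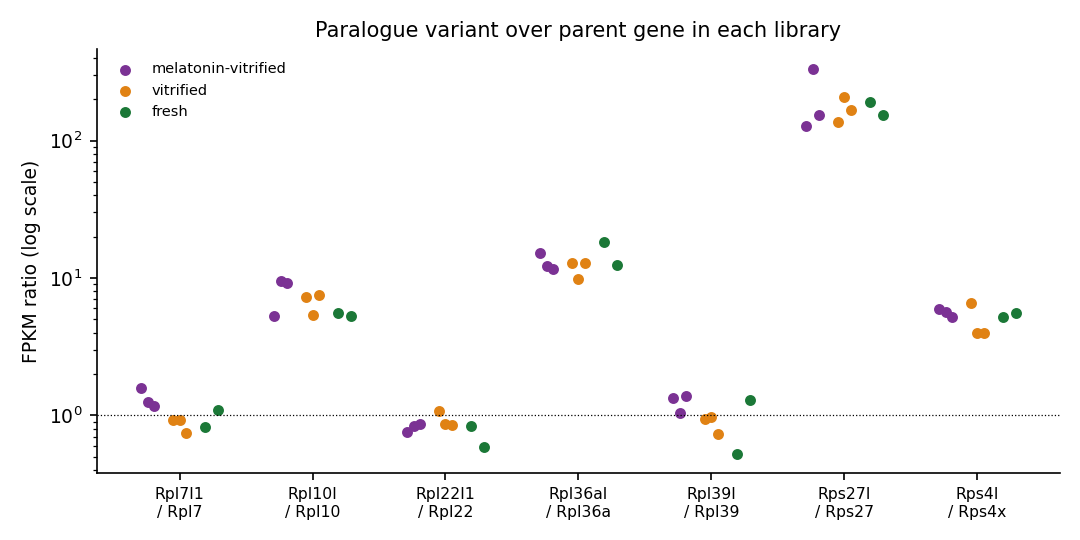
FPKM of each paralogue variant divided by that of its parent gene (log scale), with 1 point per library. Melatonin-vitrified points of Rpl7l1 over Rpl7 lie above 1 and above all other points of that pair, while the groups of Rpl22l1 over Rpl22 overlap. The Rps27l ratio has a parent row of 0.530 to 1.77 FPKM.

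Partners of the ribosomal protein genes were read from 3 lists. Of 18 tested mRNAs for translation factors and other TOP mRNAs, none passed the limma test in any comparison. At an unadjusted p below 0.05, 1, 2 and 5 were lower and 0 higher in melatonin-vitrified against vitrified, vitrified against fresh, and melatonin-vitrified against fresh. The shares of all genes at that threshold were 10.2%, 4.56% and 6.82% lower and 4.59%, 15.6% and 11.6% higher in these comparisons. Their medians were -0.15, -0.14 and -0.30, beside -0.37, -0.19 and -0.57 for the 82 ribosomal protein genes and -0.05, 0.14 and 0.09 for all genes. The difference between these sets was not tested. Btf3, of the nascent chain complex, had 98.9 ± 7.80 FPKM in melatonin-vitrified and 141 ± 10.7 FPKM in fresh libraries (-0.51 ± 0.15, adjusted p = 0.162). Nap1l1, a histone chaperone, was at -0.80 ± 0.22 (adjusted p = 0.148), the nucleolar protein Npm1 at -0.66 ± 0.24 (adjusted p = 0.211) and Tpt1 at -0.51 ± 0.20 (adjusted p = 0.22) in the same comparison.

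None of the 14 tested regulators of TOP mRNAs and mTOR passed either, with 1 higher and 0 lower, 1 higher and 3 lower, and 1 higher and 2 lower at an unadjusted p below 0.05 in the same order, to be read beside the same shares of all genes. Eif4ebp1, the repressor of eIF4E that mTOR inactivates, had 727 ± 129 FPKM in vitrified (SD, n = 3) and 1422 ± 38.9 FPKM in fresh libraries (n = 2), with -0.98 ± 0.22 (adjusted p = 0.0588). Larp4, an RNA-binding protein related to Larp1, had 17.2 ± 2.08 FPKM in vitrified and 9.61 ± 2.31 FPKM in fresh libraries (0.79 ± 0.19, adjusted p = 0.0725). The transcription factor Mycn was at -0.93 ± 0.27 (adjusted p = 0.101) and Rheb, the activator of mTOR, at -0.48 ± 0.15 (adjusted p = 0.126) for vitrified against fresh. Of 10 chaperones and assembly partners, 0 passed, with 0 higher and 1 lower, 1 higher and 1 lower, and 1 higher and 2 lower at an unadjusted p below 0.05, beside the same shares, and Nap1l1 is counted here as well as among the TOP mRNAs. Ipo7, an importin that carries ribosomal proteins into the nucleus, had 19.6 ± 2.30 FPKM in vitrified and 9.88 ± 3.03 FPKM in fresh libraries (0.94 ± 0.23, adjusted p = 0.0723). Tsr2, the chaperone of Rps26, averaged 3.61 FPKM in melatonin-vitrified and 7.24 FPKM in fresh libraries (-0.88 ± 0.28, adjusted p = 0.172), and Bccip was at -0.29 ± 0.17 for vitrified against fresh (adjusted p = 0.36).

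Markers of blastocyst lineages were present in every library. The 7 trophectoderm markers summed to 8865 to 11374 FPKM in melatonin-vitrified, 6606 to 11056 FPKM in vitrified, and 7746 and 7824 FPKM in fresh libraries. Krt8 and Krt18 made up most of this sum, with means of 3034 and 7117 FPKM in melatonin-vitrified libraries. For vitrified against fresh, the trophectoderm factor Elf5 was at -1.09 ± 0.23 (adjusted p = 0.0578) and Gata3 at 0.93 ± 0.18 (adjusted p = 0.0502). The 5 epiblast markers summed to 80.4 to 92.8, 87.3 to 106, and 24.04 and 47.4 FPKM in the same order, and the 4 primitive endoderm markers to 25.8 to 32.9, 45.2 to 47.1, and 13.4 and 35.9 FPKM. Of these 16 genes, Nanog alone passed, as higher in vitrified than in fresh libraries (2.21 ± 0.33, adjusted p = 0.0394). Of the cumulus, fibroblast and sperm markers, 1 of 5, 3 of 5 and 2 of 3 had a row, and none of these reached 1 FPKM in any library. Of 4 blood markers 2 had a row and Cd68 alone was tested, at 3.17 ± 0.675 FPKM in melatonin-vitrified, 5.27 ± 0.570 in vitrified and 1.68 ± 0.326 FPKM in fresh libraries, and it passed the test as higher in vitrified than in fresh libraries (adjusted p = 0.0446). The part of cell composition in the ribosomal protein values was not tested.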

How the data were processed

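RNA of 8 libraries was measured by sequencing. The authors deposited FPKM per gene, on mm10 per the submitters' processing notes. Aligner, counting tool, annotation, strand use, filters and the treatment of reads with several matches count as not given in the sources used here. Descriptions of biosamples in the labels gave each library's group and number. Ribosomal protein genes and all lists were chosen with earlier results of these data known.

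Of 19688 rows, genes with at least 1 FPKM in at least 2 libraries (10755) were tested on log2(FPKM + 1) with limma 3.58.1 in R 4.3.3, in 1 model of 3 groups with a variance trend, two-sided, Benjamini-Hochberg adjusted over all genes, at 0.05. Fold changes on this scale understate those of low genes. The model was tested on simulated data. Named genes were the variants and their parents, members of fixed roles, the 4 highest and 4 lowest fold changes per comparison, and the 3 highest and 3 lowest levels. Some named members are not reported here. From each partner list the 4 genes with the smallest p in any comparison were named. Copies were found with BLAST+ 2.17.0 among GENCODE M21 transcripts, and variants aligned with biopython 1.88. Other tools were matplotlib 3.10.9, scipy 1.17.1, pandas 2.3.3, numpy 2.4.6 and Python 3.11.15. Depth was estimated from 4956 genes with 1 transcript. Alternatives were other scalings, filters, pseudocounts, library weights, replicate blocks, an adjusted p of 0.1, no variance trend, the compared groups alone and leaving out each library; summing copies and removing length and GC trends were added after seeing the data.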

Additional observations from a re-analysis of the deposited data

How the results depend on the processing

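Leaving out each library in turn gave medians of -0.44 to -0.26 (large) and -0.47 to -0.30 (small) for melatonin-vitrified against vitrified, -0.36 to -0.04 and -0.36 to 0.02 for vitrified against fresh, and -0.70 to -0.40 and -0.73 to -0.36 for melatonin-vitrified against fresh. Members called lower numbered 0 to 1 in vitrified against fresh and 0 to 13 in melatonin-vitrified against fresh, the highest without fresh replicate 2, where the lone fresh library is assumed to vary like the other groups. At an adjusted p below 0.1, 1 member was called higher (Rpl10l) and 1 lower (Rpl13a) in vitrified against fresh. With 1 library left out, gene values changed sign for melatonin-vitrified against vitrified in Rps20 (-0.16 to 0.19), Rpl7l1 (-0.0460 to 0.15), Rpl15 (-0.10 to 0.18) and Rps23 (-0.18 to 0.27), for vitrified against fresh in Rps27l (-0.18 to 0.17), Rps2 (-1.09 to 0.0423) and Rpl22l1 (-0.0273 to 0.39), and for melatonin-vitrified against fresh in Rpl11 (-0.0910 to 0.32). Library weights in the fit turned Rps20 in melatonin-vitrified against vitrified (0.14). Scaling turned it too (0.0648 with median ratios, 0.03799 without mitochondrially encoded mRNAs), and in vitrified against fresh Rps27l (0.13 with quantiles, 0.04098 without mitochondrially encoded mRNAs), Rps4l (0.18 with quantiles) and Rpl22l1 (-0.002457 with median ratios), and Rpl11 in melatonin-vitrified against fresh (-0.007034 with quantiles). Summing members with their copies, chosen after seeing the data, turned Rpl15 (-0.12) and Rps23 (-0.10) in melatonin-vitrified against vitrified, and Rpl11 in vitrified against fresh (-0.18) and in melatonin-vitrified against fresh (-0.77). The cause was not tested.

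Biosample numbers did not pair the samples (correlations of same-numbered deviations from -0.115 to 0.121). With them as a replicate block, medians were -0.22 (large) and -0.20 (small) for vitrified against fresh, and 0 members passed under either block. With the title number as a replicate block, the medians were -0.16 (large) and -0.20 (small) for melatonin-vitrified against vitrified. They were -0.52 (large) and -0.52 (small) for vitrified against fresh. Rpl36al (0.0003353) in the first comparison and Rpl22l1 (-0.10) and Rpl39l (-0.10) in the second changed sign. Title numbers 1, 3 and 5 each belong to 1 library, which this block fits exactly. The contrast with fresh then rests on fresh replicate 1, which stood apart in mitochondrial share and Malat1. The mean share of summed FPKM was 3.33%, 4.05% and 4.46% in melatonin-vitrified, vitrified and fresh libraries with rows of ribosomal pseudogenes added, 4.62%, 5.55% and 6.24% with copies added, and 4.31% in fresh libraries without mitochondrially encoded mRNAs. Over all genes, calls ranged across the alternatives from 0 to 36 higher and 0 to 197 lower (3 and 12 as reported) for melatonin-vitrified against vitrified, 0 to 571 and 1 to 115 (82 and 11) for vitrified against fresh, and 0 to 415 and 0 to 150 (0 and 0) for melatonin-vitrified against fresh. These ranges include a looser threshold, an adjusted p below 0.1, which gave the 571 and 115. Depth limits the members near 1 FPKM, a level of 6.16 to 10.6 fragments at the median transcript length of the members and of fewer for shorter ones.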
